A study of Bos taurus and Sus scrofa with 10 samples.

Results

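The pluripotency list holds 10 genes: POU5F1, NANOG, SOX2, KLF4, SALL4, LIN28A, LIN28B, PRDM14, ESRRB and TDGF1. Their RNA levels were followed from the oocyte to the blastocyst in cow (Bos taurus) and pig (Sus scrofa). Members were taken by exact gene symbol. All 10 had a row among the 22845 rows of the cow table, and 8 had one among the 21867 rows of the pig table. POU5F1 and KLF4 had no row of that name in pig and were not analysed there. Each matched symbol had 1 row. Each species contributed oocytes, embryos of 2-4 cells, embryos of 8-16 cells, morulae and blastocysts. Total RNA of each of these groups was sequenced as 1 library, 10 in all, so no difference below has a replicate check and no p-value is given. The labels name no strain, treatment, embryo age or way of obtaining the embryos, and do not give the number of oocytes or embryos per library.

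In mammalian embryos these genes belong to the circuit that keeps the cells of the early embryo able to form every later tissue. POU5F1 (OCT4) and SOX2 bind DNA side by side, and together with NANOG they form the core of this circuit. Which cells of the cow and pig blastocyst carry their RNA was not tested. KLF4, ESRRB, PRDM14 and SALL4 are transcription factors that support this circuit. LIN28A and LIN28B are RNA-binding proteins that block maturation of the let-7 microRNAs. TDGF1 (Cripto) is a coreceptor at the cell surface for the signal protein NODAL. The list is therefore wider than transcription factors alone. At the blastocyst stage the outer cells form trophectoderm and part of the inner cells form primitive endoderm, and a whole-blastocyst library contains all of them. In such bulk libraries, fewer cells of a type and less RNA per cell cannot be told apart.

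Levels are given as reads per 1000000 reads of the library (RPM), which are not divided by gene length and so compare a gene between stages, not genes with each other. Read totals lay between 3002751 and 14182046 per library, and the cow blastocyst library was the deepest. A level is followed by its 95% Wilson interval, which covers counting error only. Folds against 0 reads are computed against a floor of 3 reads, the one-sided 95% limit for a count of 0, which lay between 0.212 and 0.999 RPM. The Wilson limit for 0 reads, drawn in the plots, is two-sided and lies higher, at 0.865 against a floor of 0.676 RPM for NANOG in the cow 2-4 cell library, so a fold bound set against it would be smaller. The stage labels were set against marker lists. Of 10 oocyte markers, all 10 reached 1 RPM in both oocyte libraries, none had a read in the cow blastocyst library, and 4 reached 1 RPM in the pig blastocyst library. Of the trophectoderm markers, 8 of 10 in cow and 9 of 11 in pig reached 1 RPM in the blastocyst libraries. Before the blastocyst 5 to 6 of the 10 did so in each cow library and 3 to 6 of the 11 in each pig library, so these shares alone do not set the stages apart, and the summed levels are given below.

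POU5F1 was measured in cow only (chromosome 23, 27769893 to 27774392 on the plus strand). The oocyte library held 2.64 RPM (1.54 to 4.51), followed by 4.73 RPM at the 2-4 cell stage (3.09 to 7.23), 1.84 RPM at the 8-16 cell stage (0.9999 to 3.39), 17.4 RPM in the morula (13.8 to 22.1) and 42.4 RPM in the blastocyst (39.1 to 45.9). The morula and blastocyst libraries were thus the high ones, and the intervals of the oocyte library overlapped those of both cleavage stages. From the 8-16 cell stage to the morula POU5F1 was 9.47-fold higher (95% counting interval of the ratio 4.85 to 20.6), and from the morula to the blastocyst 2.43-fold higher (1.89 to 3.17). Over the whole course the ratio was 16.1 (9.33 to 30.4).

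NANOG, a homeodomain factor of the inner cell mass, had a different course in cow (chromosome 5, 101871073 to 101876226). No read was found in the oocyte or the 2-4 cell library, where the floors were 0.609 and 0.676 RPM. The 8-16 cell library held 630 NANOG reads, or 116 RPM (107 to 125), the morula 76.4 RPM (68.2 to 85.6) and the blastocyst 14.5 RPM (12.6 to 16.6). The level at the 8-16 cell stage was at least 172-fold above that at the 2-4 cell stage. It was then 1.52-fold lower in the morula (1.32 to 1.75) and 5.29-fold lower again in the blastocyst (4.41 to 6.35). POU5F1 and NANOG thus differed in opposite directions at each of the steps from the 2-4 cell stage on in cow.

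In pig, NANOG (chromosome 5, 62932575 to 62939035) was low throughout. Its reads numbered 0 in the oocyte, 10 at the 2-4 cell stage, 8 at the 8-16 cell stage, 8 in the morula and 0 in the blastocyst. These counts correspond to 2.42 RPM (1.31 to 4.45), 2.53 RPM (1.28 to 4.99) and 2.66 RPM (1.35 to 5.26) at the 3 middle stages, whose intervals overlapped. The floors were 0.888 RPM in the oocyte and 0.804 RPM in the blastocyst library. NANOG was therefore detected only between these end points, at a depth that does not order the 3 middle stages.

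SOX2, the partner of POU5F1 on DNA, was present in the cow oocyte (chromosome 1, 85933323 to 85934782). The oocyte library held 9.53 RPM (7.17 to 12.7), followed by 15.1 RPM at the 2-4 cell stage (11.9 to 19.2), 2.76 RPM at the 8-16 cell stage (1.67 to 4.56), 14.9 RPM in the morula (11.5 to 19.2) and 27.3 RPM in the blastocyst (24.7 to 30.1). The 8-16 cell library was the lowest, with an interval below all others, and the blastocyst the highest. The step into the 8-16 cell stage was a 5.47-fold fall (3.09 to 10.3) and the step out of it a 5.39-fold rise (3.01 to 10.2). On the log2(RPM + 1) scale both steps lay near the limit of 2 used for calling a change, at -2.10 and 2.08. They became -1.78 and 1.93 with median-of-ratios scaling, and the first became -1.91 with quantile normalisation.

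In pig, SOX2 (chromosome 13, 119663183 to 119669539) had 4 reads in the oocyte library, or 1.18 RPM, then 1.93 and 2.53 RPM at the cleavage stages. The intervals of these 3 libraries overlapped. The morula library stood apart at 10.3 RPM (7.27 to 14.7), 4.09-fold above the 8-16 cell stage (1.84 to 10.3). The blastocyst library held no SOX2 read, at least 12.8-fold below the morula. In cow the same step was a level 1.83-fold higher (1.39 to 2.46). Cow and pig libraries thus differed in direction for SOX2 between morula and blastocyst, and this difference between species was not tested.

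**Figure D1:**
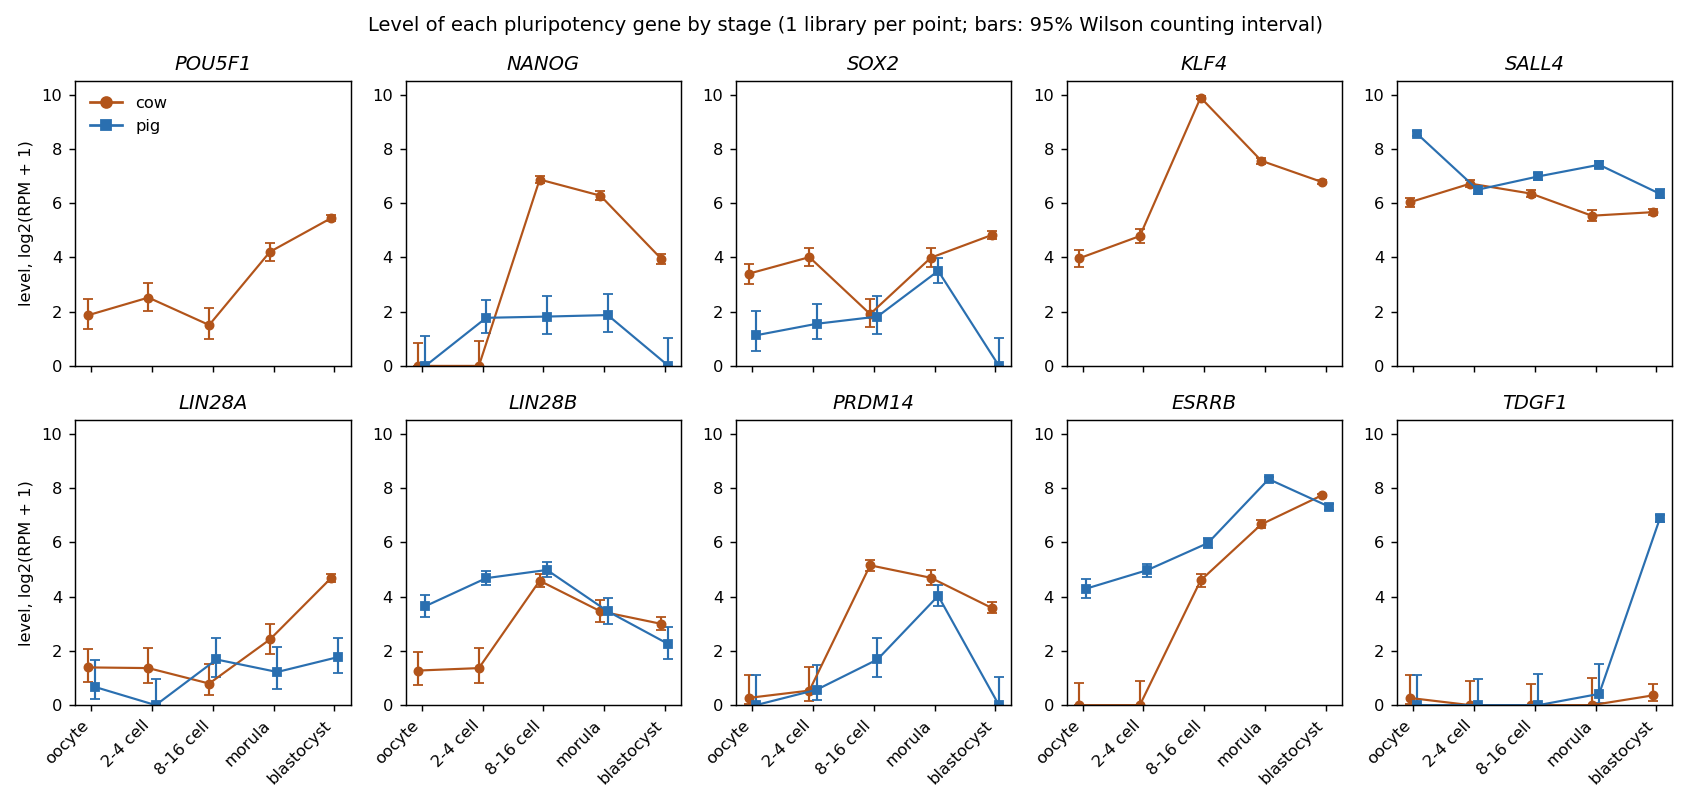
Level of each gene, as log2(RPM + 1), in the 5 stages of cow (circles) and pig (squares), with 1 library per point and bars for the 95% Wilson counting interval. In pig, NANOG, SOX2 and PRDM14 end at 0 reads in the blastocyst, while TDGF1 goes from 1 read in the morula to 438 reads, and cow KLF4 peaks at 948 RPM in the 8-16 cell library. The tables of both species were scaled separately, so heights are to be read within a species.

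KLF4, a zinc finger factor of the Krüppel-like family, was measured in cow only (chromosome 8, 98843684 to 98847740). The oocyte library held 14.6 RPM (11.6 to 18.4), the 2-4 cell library 26.6 RPM (22.2 to 31.8) and the 8-16 cell library 948 RPM (923 to 974). The morula stood at 188 RPM (175 to 202) and the blastocyst at 109 RPM (103 to 114). No 2 neighbours in this order had overlapping intervals. The rise into the 8-16 cell stage was 35.7-fold (29.7 to 43.2), and 73.7% of the RPM summed over the 5 stages lay in that library. The fall into the morula was 5.05-fold (4.67 to 5.47).

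ESRRB, an orphan nuclear receptor, had 0 reads in the cow oocyte and in the 2-4 cell library (chromosome 10, 88763705 to 88818475). It then stood at 23.2 RPM at the 8-16 cell stage (19.5 to 27.6), 101 RPM in the morula (91.1 to 111) and 213 RPM in the blastocyst (205 to 220). Each of these libraries was higher than the one before it, by at least 34.3-fold, by 4.33-fold (3.54 to 5.34) and by 2.11-fold (1.90 to 2.35). The change from the 8-16 cell stage to the morula was 2.07 on the log2(RPM + 1) scale and fell below the limit with median-of-ratios scaling (1.90) and with quantile normalisation (1.89).

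In pig, ESRRB (chromosome 7, 99513362 to 99699775) was present from the oocyte on. The levels were 18.7 RPM in the oocyte (14.6 to 23.9), 30.4 RPM at the 2-4 cell stage (25.6 to 36.2), 61.9 RPM at the 8-16 cell stage (53.8 to 71.2), 321 RPM in the morula (301 to 342) and 158 RPM in the blastocyst (145 to 171). All 5 intervals were separate. The morula was the high library, 5.19-fold above the 8-16 cell stage (4.44 to 6.08), and the blastocyst was 2.04-fold below it (1.84 to 2.26). The last step had the opposite sign in cow, and the difference was not tested.

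PRDM14, a zinc finger protein of the germ line and of naive pluripotent cells, had 1 read in the cow oocyte and 2 reads in the 2-4 cell library (chromosome 14, 35897237 to 35915657). It reached 34.6 RPM at the 8-16 cell stage (30.0 to 39.9), a ratio of 76.8 with a wide interval (21.0 to 639). Levels of 24.9 RPM in the morula (20.4 to 30.3) and 11.0 RPM in the blastocyst (9.40 to 12.9) followed, the first overlapping the 8-16 cell interval slightly. In pig (chromosome 4, 65274003 to 65295178) the read counts were 0, 2, 7, 46 and 0 from oocyte to blastocyst. The pig morula was the only high library, at 15.3 RPM (11.5 to 20.4), 6.93-fold above the 8-16 cell stage (3.11 to 18.2). The blastocyst library was at least 19.0-fold below it.

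SALL4, a zinc finger factor that is also stored in oocytes, stayed well above the floor at every stage in cow (chromosome 13, 80297262 to 80313158). It ranged from 45.4 RPM in the morula (39.2 to 52.6) to 104 RPM at the 2-4 cell stage (95.2 to 114). The oocyte library stood at 64.3 RPM (57.6 to 71.8), the 8-16 cell library at 80.6 RPM (73.4 to 88.5) and the blastocyst at 49.8 RPM (46.2 to 53.6), which overlapped the morula. No cow step of SALL4 reached the limit of 2. From oocyte to blastocyst its difference of -0.36 on the log2(RPM + 1) scale turned to 0.03 when libraries were scaled to gene reads outside the mitochondrial chromosome.

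In pig, SALL4 (chromosome 17, 53079636 to 53103023) was highest in the oocyte, at 377 RPM (357 to 398). It was 89.2 RPM at the 2-4 cell stage (80.5 to 98.7), 126 RPM at the 8-16 cell stage (114 to 139), 170 RPM in the morula (155 to 185) and 80.2 RPM in the blastocyst (71.6 to 89.8). Only the 2-4 cell and blastocyst intervals overlapped. The first step was a 4.23-fold fall (3.76 to 4.76), or -2.07 on the log2(RPM + 1) scale, and it was below the limit under each other scaling tried, at -1.82 with median-of-ratios scaling, -1.79 with quantile normalisation and -1.90 when scaled to gene reads outside the mitochondrial chromosome. The span of pig SALL4 encloses a 5S rRNA gene on the other strand, and how the authors counted strands is not given in the sources used here.

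LIN28A and LIN28B, paralogs that act on let-7, parted in cow. LIN28A (chromosome 2, 127299734 to 127310992) stood at 1.62 RPM in the oocyte (0.822 to 3.20), 1.58 RPM at the 2-4 cell stage (0.764 to 3.26), 0.736 RPM at the 8-16 cell stage (0.286 to 1.89), 4.36 RPM in the morula (2.72 to 6.98) and 24.5 RPM in the blastocyst (22.0 to 27.2). The blastocyst was the only library clear of the rest, 5.61-fold above the morula (3.45 to 9.75). LIN28B (chromosome 9, 45543366 to 45593061) had its highest cow level at the 8-16 cell stage instead. Its levels were 1.42 RPM in the oocyte (0.688 to 2.93), 1.58 RPM at the 2-4 cell stage (0.764 to 3.26), 23.0 RPM at the 8-16 cell stage (19.3 to 27.4), 10.002 RPM in the morula (7.32 to 13.7) and 6.98 RPM in the blastocyst (5.73 to 8.50). The rise into the 8-16 cell stage was 14.6-fold (6.88 to 37.0).

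In pig, LIN28A (chromosome 6, 83806178 to 83818550) had between 0 and 9 reads per library, and the intervals of all neighbours in its order overlapped. With 0 reads, the 2-4 cell interval (0 to 0.928 RPM) lay below that of the 8-16 cell library (1.07 to 4.56 RPM). It also lay below that of the blastocyst library (1.27 to 4.59 RPM). LIN28B (chromosome 1, 71174509 to 71299820) was already present in the pig oocyte at 11.5 RPM (8.45 to 15.8). It stood at 24.6 RPM at the 2-4 cell stage (20.3 to 29.9) and 30.6 RPM at the 8-16 cell stage (25.1 to 37.4), with overlapping intervals. The morula had 9.99 RPM (6.999 to 14.3) and the blastocyst 3.75 RPM (2.24 to 6.30). Blastocyst against oocyte, LIN28B was thus 3.08-fold lower in pig (1.63 to 6.13) and 4.92-fold higher in cow (2.30 to 12.5), and this difference between species was not tested.

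In pig, 99.7% of the TDGF1 level summed over the stages lay in the blastocyst library (chromosome 13, 29540411 to 29543802). It had 0 reads in the oocyte, 2-4 cell and 8-16 cell libraries, 1 read in the morula library and 438 reads, or 117 RPM (107 to 129), in the blastocyst library. The ratio of blastocyst to morula was 353, with an interval of 63.0 to 13959 that reflects the single morula read. Against the oocyte the blastocyst was at least 132-fold higher. In cow (chromosome 22, 53432383 to 53437016) TDGF1 had 1 read in the oocyte, none at the next 3 stages and 4 reads in the blastocyst library of 14182046 reads, or 0.282 RPM (0.110 to 0.725). Cow TDGF1 stayed under the minimum for comparison at every step.

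A change was called where the difference of log2(RPM + 1) between 2 libraries was 2 or more in size, in genes with at least 1 RPM in one of both. This is a rule of size and not a test against replicate spread. The members were set beside all rows of the table under the same rule. From oocyte to the 2-4 cell stage none of the 6 cow members that could be compared was called, where 0.374% of 11226 genes were called (0.196% higher and 0.178% lower). Between the 2-4 and 8-16 cell stages 6 of 9 were called, where 27.2% of 12405 genes were (12.6% higher and 14.6% lower): NANOG, KLF4, LIN28B, PRDM14 and ESRRB higher, and SOX2 lower. NANOG, PRDM14 and ESRRB passed the minimum only through the later library, so their calls follow in part from the rule. The median difference of the 9 genes was 3.22, against -0.44 over all genes, and it follows in part from the rule. Besides NANOG, PRDM14 and ESRRB, KLF4 (5.10) and LIN28B (3.22) were higher. SALL4 (-0.37), LIN28A (-0.57), POU5F1 (-1.01) and SOX2 (-2.10) were lower.

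From the 8-16 cell stage to the morula 4 of 9 were called, where 11.8% of 12334 genes were (6.67% higher and 5.15% lower): POU5F1, SOX2 and ESRRB higher, and KLF4 lower. From the morula to the blastocyst 2 of 9 were called, LIN28A higher and NANOG lower, where 23.4% of 12653 genes were called (11.9% higher and 11.5% lower). Blastocyst against oocyte, 6 of 9 were called, all higher (POU5F1, NANOG, KLF4, LIN28A, PRDM14 and ESRRB), where 40.2% of 12738 genes were called (21.8% higher and 18.4% lower). The median over the 9 genes was 3.28, and 2.90 with values under 3 reads raised to 3 reads, against 0.18 over all genes. NANOG, PRDM14 and ESRRB were under 1 RPM in the oocyte and passed the minimum only through the blastocyst, so their calls and the median follow in part from the rule.

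In pig, from the oocyte to the 2-4 cell stage 1 of 5 members was called, SALL4 lower, where 5.43% of 11362 genes were called (3.26% higher and 2.17% lower). Between the 2-4 and 8-16 cell stages none of 7 was called, where 4.87% of 12153 genes were called (4.33% higher and 0.543% lower). The difference was above 0 in all 7, but under quantile normalisation it was -0.51 for NANOG and -0.23 for SOX2. With median-of-ratios scaling it was -0.15 for NANOG, and with libraries thinned to equal depth -0.32 for SOX2. LIN28A (0 reads) and PRDM14 (2 reads) were under 1 RPM at the 2-4 cell stage. They passed the minimum only through the 8-16 cell library. From the 8-16 cell stage to the morula 2 of 7 were called higher, PRDM14 and ESRRB, where 23.3% of 12746 genes were called (12.0% higher and 11.3% lower). From the morula to the blastocyst 3 of 8 were called, TDGF1 higher and SOX2 and PRDM14 lower, where 27.6% of 12567 genes were called (13.8% higher and 13.8% lower). Each of these 3 was under 1 RPM in the other library and passed the minimum only through the one in which it is high, so the calls follow in part from the rule. NANOG differed by -1.56 at that step, below the limit. Over the whole course 3 of 6 were called, ESRRB and TDGF1 higher and SALL4 lower, where 45.2% of 12512 genes were called (26.0% higher and 19.2% lower). The median of 0.14 over the 6 genes (0.29 with values under 3 reads raised to 3 reads) lay below the 0.43 over all genes. TDGF1 had 0 reads in the oocyte and entered this count and median only through the blastocyst. LIN28A (0.592 RPM in the oocyte) also entered only through the blastocyst, and SOX2 (0 reads in the blastocyst) only through the oocyte. Their differences of 1.10 and -0.82 lie next to the median on either side. Its place below all genes thus follows in part from the rule.

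**Figure D2:**
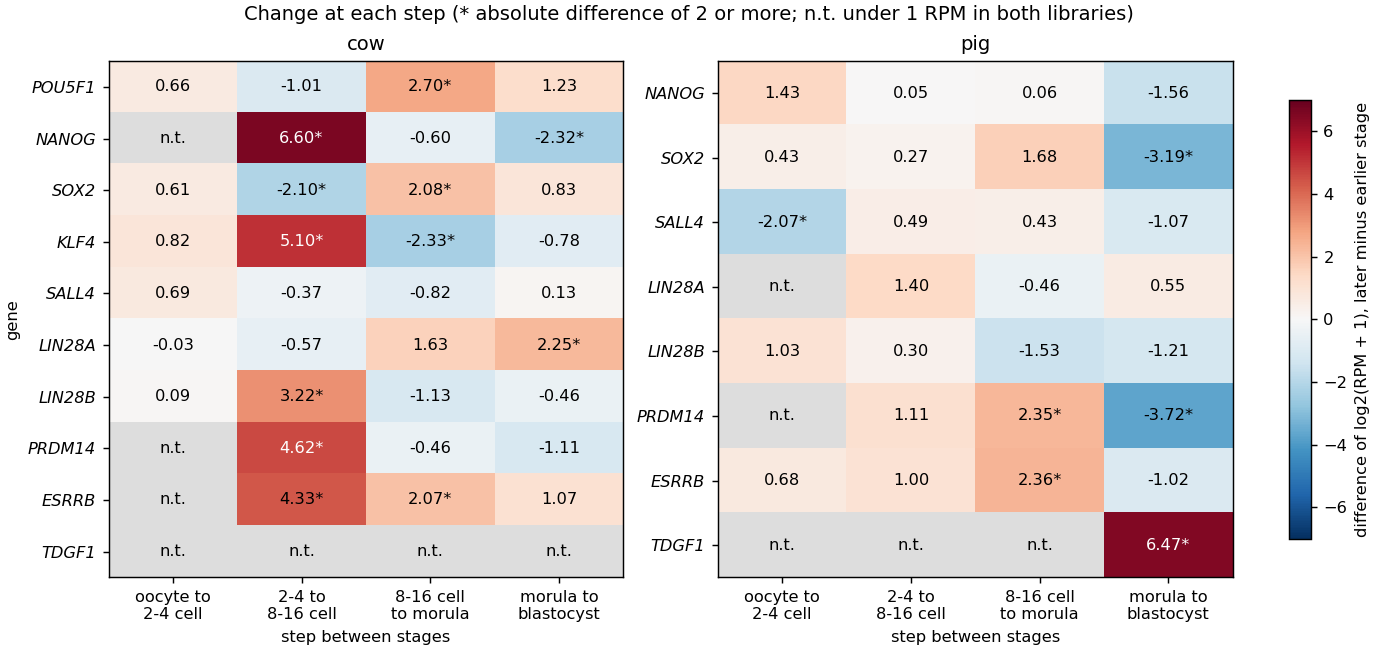
Difference of log2(RPM + 1), later minus earlier stage, for each gene (rows) at each of the 4 steps between stages (columns) in cow and pig. An asterisk marks a size of 2 or more, and n.t. marks a gene under 1 RPM in both libraries. In cow the second column holds 6 marked genes, and in pig the column from the morula to the blastocyst holds 3.

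Markers of other cell types moved at the same step at which pig SOX2 and PRDM14 fell. From morula to blastocyst 7 of 10 pig trophectoderm markers compared were called higher and 1 lower (13.8% of all genes each way). The summed level of the list went from 98.2 to 8698 RPM. KRT8 went from 1 read to 3629 RPM there, and CDX2, a factor that marks trophectoderm, went from 0 reads to 8.85 RPM. In cow 5 of 8 trophectoderm markers compared were called higher and none lower at that step (11.9% and 11.5% of all genes). The sum of the list went from 36.4 to 3586 RPM. Of the primitive endoderm markers compared, 2 of 6 in pig and 4 of 7 in cow were called higher. The sums of these lists went from 270 to 440 RPM in pig and from 530 to 786 RPM in cow. Markers under 1 RPM in the morula, such as pig KRT8 and CDX2, passed the minimum only through the blastocyst. Their calls follow in part from the rule. SOX17 and FOXA2, defining markers of primitive endoderm, had 0 reads in all 5 pig libraries. In the pig blastocyst library 6 of the 8 primitive endoderm markers with a row reached 1 RPM. Mitochondrial reads took 16.3% of the pig morula and 18.6% of the pig blastocyst library, and 9.15% and 30.2% of those of cow. The part of these shifts in the member changes was not tested.

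**Figure D3:**
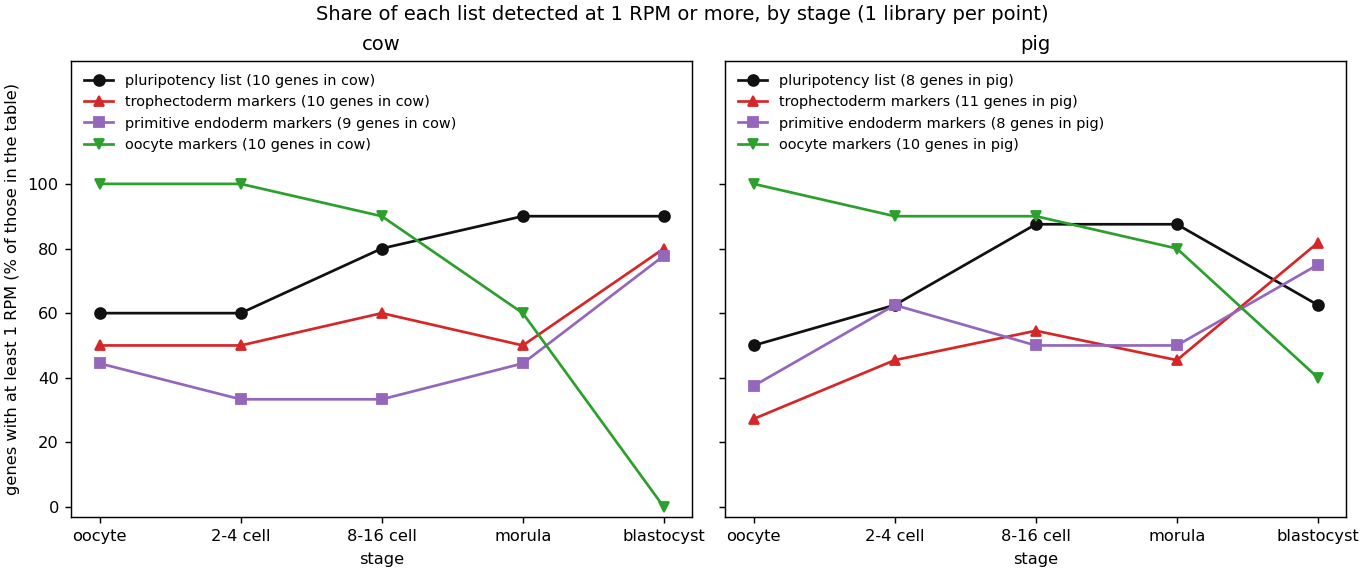
Share of the genes of each list with at least 1 RPM, by stage, for the pluripotency list and for markers of trophectoderm, primitive endoderm and the oocyte, with 1 library per point. In cow 9 of the 10 pluripotency genes reached 1 RPM in both the morula and the blastocyst library. In pig 7 of 8 did so in the morula and 5 of 8 in the blastocyst, where 9 of 11 trophectoderm markers did.

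Regulators around the core circuit were read from a list of 28 symbols, of which 21 had a row in cow and 25 in pig. From oocyte to blastocyst 9 were called higher and 3 lower of 17 compared in cow, where 21.8% of all genes were called higher and 18.4% lower, with a median of 2.49 against 0.18 over all genes. In pig 9 were called higher and 5 lower of 17, where 26.0% and 19.2% of all genes were, with a median of 2.06 (1.49 with values under 3 reads raised to 3 reads) against 0.43. Here, as in the lists below, genes under 1 RPM in one library passed the minimum only through the other, so their calls follow in part from the rule. The 3 with the largest changes in cow were TFCP2L1, TFAP2C and ZFP42, each with 0 reads in the oocyte. TFCP2L1, a factor of naive pluripotency, reached 131 RPM in the cow blastocyst (125 to 137). TFAP2C, an AP-2 factor shared with trophectoderm, reached 105 RPM (99.5 to 110), and ZFP42 (REX1), a marker of naive cells, reached 91.7 RPM (86.9 to 96.9).

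The 3 with the largest changes in pig were ETV5, TBX3 and MYCN. ETV5, an ETS factor downstream of FGF signals, fell from 203 RPM in the oocyte (188 to 219) to 0 reads in the blastocyst. TBX3, a T-box factor, went from 1 read to 135 RPM (124 to 147), with 220 RPM in the morula. MYCN, a MYC family factor, went from 0 reads to 39.7 RPM (33.8 to 46.6), with 104 RPM in the morula. From the pig morula to the blastocyst, the step at which SOX2 and PRDM14 fell, 2 of 17 compared were called higher and 4 lower, where 13.8% of all genes were called in each direction, so the list's counts lay near the background.

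Around LIN28, 12 of 14 listed symbols had a row in cow and 10 in pig. Blastocyst against oocyte, 5 were called higher and 1 lower of 12 compared in cow, where 21.8% and 18.4% of all genes were. In pig 2 were called higher and 2 lower of 10, near the 26.0% and 19.2% of all genes. TRIM71, a let-7 target and regulator of messenger RNA, went from 2 reads to 80.4 RPM in cow and from 2 reads to 29.8 RPM in pig. IGF2BP1, an RNA-binding protein, went from 2 reads to 99.1 RPM in cow, and ZCCHC11 (TUT4), a uridylyltransferase that works with LIN28, from 12.2 to 146 RPM. In pig IGF2BP2 went from 7.40 to 156 RPM and IGF2BP3 from 600 to 97.3 RPM.

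Around TDGF1, 14 of 18 listed genes of the NODAL pathway had a row in cow and 11 in pig. Blastocyst against oocyte, 3 were called higher and 3 lower of 10 compared in cow, near the 21.8% and 18.4% of all genes. In pig 1 was called higher and 1 lower of 7, where 26.0% and 19.2% of all genes were. NODAL itself had 0 reads in the pig morula and blastocyst libraries and 3 reads in the cow blastocyst library. In pig ACVR1B, a type I receptor for NODAL, fell from 98.0 to 2.95 RPM, and FURIN, a protease that cleaves the NODAL precursor, went from 24.6 to 117 RPM. The third was SMAD2, a signal transducer, at 66.6 and 153 RPM, a difference of 1.19 that was not called. In cow SMAD7, an inhibitor of the pathway, went from 0 reads to 24.3 RPM, and SMAD3, a signal transducer, from 49.9 to 5.50 RPM.

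**Figure D4:**
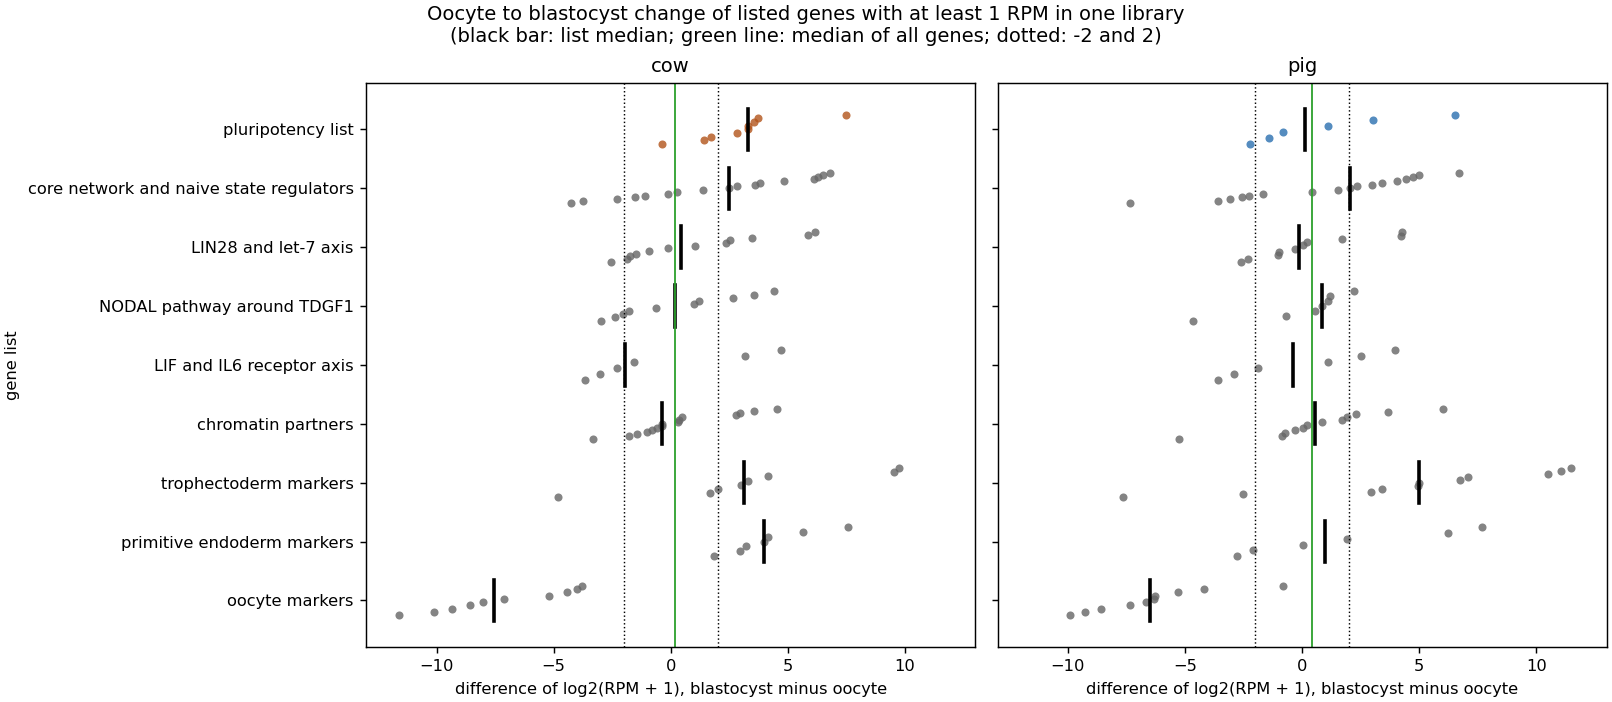
Difference of log2(RPM + 1), blastocyst minus oocyte, for the genes of each list with at least 1 RPM in one of both libraries (points), with list medians as black bars, the median of all genes as a green line and dotted lines at -2 and 2. The median of the pluripotency list is 3.28 in cow, right of the 0.18 of all genes, and 0.14 in pig, left of the 0.43 of all genes. Both list medians follow in part from the minimum of 1 RPM, which some members passed in only 1 of both libraries.

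The members did not form 1 course. Likeness was measured as the root mean square distance between log2(RPM + 1) profiles over the 5 stages, each centred on its own mean, among genes reaching 10 RPM. In cow the closest pair of members was POU5F1 and LIN28A (0.46), both highest in the blastocyst. KLF4 and PRDM14 (0.68) and NANOG and PRDM14 (0.82) came next, all 3 highest at the 8-16 cell stage. POU5F1 and NANOG lay 2.90 apart. In pig SOX2 and PRDM14 were the closest pair (0.55), both highest in the morula, and TDGF1 lay between 2.44 and 3.45 from every other member compared.

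Among all other named genes reaching 10 RPM, 8953 in cow and 8248 in pig, those nearest to a member were found by the same distance. Nearest to cow POU5F1 were BSG (0.16), POLR3GL (0.19) and C25H16orf62 (0.19), to cow NANOG PNP (0.23), TUBA1A (0.26) and SRSF3 (0.27), and to cow SOX2 TULP4 (0.11), LRRC1 (0.14) and CPT2 (0.15). For cow KLF4 they were LXN (0.34), C3H1orf52 (0.36) and ZNF131 (0.40), for PRDM14 YTHDF2 (0.06), TOMM5 (0.11) and TYW3 (0.12), and for ESRRB SORD (0.27), PKHD1 (0.36) and MOB3B (0.37). For cow SALL4 they were SDE2, ZNF16 and TMCC3 (0.10 to 0.11), for LIN28A FOXP1, GP5 and PCSK5 (0.10 to 0.18) and for LIN28B CMC2, EIF3A and BAMBI (0.13 to 0.15). The number of genes within a distance of 0.5 ran from 6 for cow ESRRB, 12 for cow KLF4 and 15 for cow NANOG to 683 for cow SALL4. Cow TDGF1, pig NANOG and pig LIN28A did not reach 10 RPM and were not compared in this way.

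In pig the nearest genes to SOX2 were TRMT13, PKHD1 and BNIPL (0.17 to 0.18), and to PRDM14 RSPO3, IQCK and CCR4 (0.09 to 0.13). For SALL4 they were UBE2T, TMEM2 and COQ8A (0.13 to 0.18), for LIN28B ZFP37, DNAJC7 and MAN1A1 (0.15 to 0.18) and for ESRRB PCED1B, ZNF25 and KDM4A (0.11 to 0.12). Nearest to pig TDGF1 were APOA2 (0.02), TPP1 (0.04) and MFSD7 (0.08), each with 0 reads before the blastocyst, where TDGF1 had 1. APOA2 stood at 120 RPM there, TPP1 at 124 RPM and MFSD7 at 102 RPM. Such likeness over 5 libraries describes the levels only.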

How the data were processed

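The authors deposited 1 table per species, with gene rows and 1 column per stage. The submitters' processing notes list Trim Galore 0.6.4, HISAT2 2.1.0 and the builds UMD3.1 and Sscrofa11.1, with no role. The counting method, strand handling and duplicate removal are not given in the sources used here. Per the labels' protocols, cDNA was amplified from low input and libraries had 8 PCR cycles, so reads are not independent molecules and intervals cover counting error only. The deposited values are log2 RPM. In every column all values up to 1000 reads are whole multiples of the second lowest value, within 0.02 of a read, and 0 reads is written as 0.9 of a read. Reads and totals were recovered from this.

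Differences used log2(RPM + 1), with 0 reads at 0.9 of a read, which understates changes of low genes. Floors are 3 reads per library. Ratio intervals are exact (Clopper-Pearson, conditional on both counts). Folds against 0 reads are lower bounds against the floor. No test was possible with 1 library per group. Calls were checked on simulated data. 10 alternatives were planned and 1 added after seeing the data. Members, 5 pathway lists and 4 marker lists were chosen with earlier results of these data known. All members were named; other named genes are the 3 nearest profiles per member and the 3 largest oocyte to blastocyst changes per list, and further genes were chosen after their values were seen; 1 gene that this rule names is not reported here. Python 3.11.15, scipy 1.17.1 and matplotlib 3.10.9 were used.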

Additional observations from a re-analysis of the deposited data

Results flagged for a closer look

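For 7 combinations of a gene and a comparison, the cow and pig libraries moved in opposite directions, with counting intervals of the difference that exclude 0 in both species. None of these differences between species was tested, since each group had 1 library. Values are differences of log2(RPM + 1), later minus earlier stage. SOX2 differed by 0.83 in cow and -3.19 in pig from the morula to the blastocyst, and ESRRB by 1.07 and -1.02 at the same step. PRDM14 differed by -0.46 in cow and 2.35 in pig from the 8-16 cell stage to the morula. SALL4 had opposite signs at 3 consecutive steps, with 0.69 in cow and -2.07 in pig from the oocyte to the 2-4 cell stage, -0.37 and 0.49 between the 2-4 and 8-16 cell stages, and -0.82 and 0.43 from there to the morula. The middle one of these steps rests on the scaling: in cow it was -0.02 with median-of-ratios scaling, -0.04 with quantile normalisation and -0.15 when scaled to gene reads outside the mitochondrial chromosome, and in pig 0.22, 0.40 and 0.51. LIN28B differed by 1.72 in cow and -1.40 in pig from oocyte to blastocyst.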

How the results depend on the processing

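The counts of called members kept within 1.5 times of the reported ones under every alternative for 3 cow comparisons: oocyte to 2-4 cell (0), 2-4 to 8-16 cell (5 to 7) and oocyte to blastocyst (4 to 8). A pseudocount of 5 left 1 member called in cow at each of the last steps, into the morula and into the blastocyst, and 1 in pig at each of them. A pseudocount of 0.1 gave 2 in pig from the oocyte to the 2-4 cell stage and 1 at the next step. Median-of-ratios scaling gave 2 in cow between 8-16 cells and morula. For pig from the oocyte to the 2-4 cell stage, it gave 0, as did quantile normalisation and scaling to gene reads outside the mitochondrial chromosome. A limit of 1 in place of 2, which calls more genes by construction, gave 5 in cow from the morula to the blastocyst, and in pig 3, 3, 4 and 7 at the 4 steps in order and 5 over the whole course. For the other moves the cause was not tested. Of 27 called changes of single members, all 27 kept their sign under 8 alternatives, including 0 reads set to 0 RPM, which was chosen after seeing the data, and 10 fell below 2 with a pseudocount of 5. Scaling moved the median of all genes by between -0.41 and 0.42. Genes called higher and lower went from 22 and 20 to 9 and 31 (median-of-ratios) or 10 and 31 (quantile) in cow from the oocyte to the 2-4 cell stage, and from 1567 and 1805 to 1867 and 1185 (median-of-ratios) at the next step. In pig they went from 370 and 247 to 477 and 178 (median-of-ratios), and then from 526 and 66 to 389 and 108 (median-of-ratios) or 357 and 212 (quantile). Into the morula, median-of-ratios scaling turned 823 and 635 to 690 and 771 in cow, and 1534 and 1434 to 1268 and 1606 in pig. From morula to blastocyst in cow, 1506 and 1457 became 2138 and 1432 when scaled to gene reads outside the mitochondrial chromosome. No paired analysis was possible because each group had 1 library. Depth limits pig NANOG, LIN28A, SOX2 and PRDM14, with 0 to 46 reads per library.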

Other observations

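Chromatin partners of the circuit, which include subunits of the NuRD and SWI/SNF complexes, were read from 17 listed symbols, 16 with a row in cow and 12 in pig. From oocyte to blastocyst 4 were called higher and 1 lower of 15 compared in cow, where 21.8% and 18.4% of all genes were. In pig 3 were called higher and 1 lower of 12, where 26.0% and 19.2% of all genes were, so the shares called higher lay near the background in both species. MTA2, a NuRD subunit, went from 4 reads to 40.5 RPM in cow and from 2 reads to 102 RPM in pig. NCOA3, a coactivator of ESRRB, fell from 1353 to 34.3 RPM in pig, a difference of -5.26, while TRIM28 went from 7.99 to 113 RPM. In cow RCOR1 went from 4.06 to 58.5 RPM, and WDR5 from 10.95 RPM to 3 reads.

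In the receptor axis of LIF and IL6, all 7 listed genes had a row in both tables. Blastocyst against oocyte, 2 were called higher and 3 lower of 6 compared in cow, and 2 higher and 2 lower of 6 in pig, where 40.2% of all cow genes and 45.2% of all pig genes were called in either direction. IL6R, a receptor subunit for IL6, was at 1.42 RPM in the cow oocyte and 62.5 RPM in the blastocyst, and in pig at 1.18 and 33.2 RPM. IL6ST (gp130), the chain shared by both receptors, stood at 20.7 and 193 RPM in cow, and at 42.9 and 247 RPM in pig. LIFR stood at 42.0 and 2.40 RPM in cow, and at 104 and 27.1 RPM in pig. STAT3, the transducer of both signals, which also stands in the wider regulator list, went from 102 to 7.51 RPM in pig and JAK1 from 429 to 56.8 RPM. SOCS3, a target gene of STAT3, had 0 reads in all 5 pig libraries.

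NR5A2, an orphan nuclear receptor of the wider regulator list, was chosen after its values were seen. It was high in the morula of both species and low in the blastocyst, at 54.6 RPM (47.8 to 62.5) and 1.62 RPM (1.08 to 2.43) in cow and at 117 RPM (106 to 130) and 4.29 RPM (2.64 to 6.97) in pig.

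Markers of cumulus cells, which surround the oocyte, had 12 rows in cow and 8 in pig. Their summed level in cow was 458, 411, 110, 62.8 and 102 RPM from oocyte to blastocyst in stage order. Blastocyst against oocyte, 2 were called higher and 4 lower of 8 compared. In pig the sums were 160, 116, 200, 355 and 338 RPM in that order, with 1 called higher and 1 lower of 5. Whether cumulus cells were present was not tested. Of the oocyte markers, all 10 were called lower from oocyte to blastocyst in cow and 9 of 10 in pig, where 18.4% and 19.2% of all genes were called lower. With 0 reads in the blastocyst, all 10 in cow and 5 in pig passed the minimum only through the oocyte library. Their calls follow in part from the rule. The cumulus counts stand beside 21.8% higher and 18.4% lower over all genes in cow, and 26.0% and 19.2% in pig.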
